A study of Mus musculus with 11 samples.

Results

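Messenger RNA of 10 genes of fibroblast growth factor (FGF) signalling was described in sorted epidermal cells of mouse dorsal skin: the ligands Fgf18, Fgf1 and Fgf2, the receptors Fgfr1, Fgfr2 and Fgfr3, and the feedback inhibitors Spry1, Spry2, Spry4 and Dusp6. They were chosen by name, 10 of the 55536 genes counted, and were found by their Ensembl identifiers in all 11 libraries. Earlier results of these data were known when they were chosen, so member counts set beside shares of all genes are a description. All 10 passed the filter on low counts, which kept 20307 genes. The cells came from male CD4Cre R26-tdT mice on C57Bl6/N, in which Cre under Cd4 regulatory sequence switches on tdTomato (tdT) from the Rosa26 locus, so that tdT marks cells that express or once expressed Cre, and their progeny. Every group carried both alleles, the labels name no treatment, and each library pooled 2 mice. Cells that carried the surface proteins CD49f and CD34 were sorted by Sca-1 and by tdT into tdT+ CD49f+CD34+Sca-1neg (n = 3), tdTneg CD49f+CD34+Sca-1neg (n = 3), tdT+ CD49f+CD34+Sca-1+ (n = 3) and tdTneg CD49f+CD34+Sca-1+ cells (n = 2). Replicate 1 of each group was from mice of 29 weeks and replicates 2 and 3 from mice of 32 weeks.

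FGFs are secreted proteins that bind receptor tyrosine kinases together with heparan sulphate, and the receptors signal through the adaptor FRS2 to the RAS and ERK kinases. ERK signalling in turn raises Sprouty proteins, which damp the relay, and DUSP6, a phosphatase that removes the activating phosphates of ERK. In hair follicles FGF18 is made in the bulge, the niche of the CD34+ stem cells, and is known to hold the follicle in its resting phase. FGFR2 in its epithelial form receives FGF7 and FGF10 from the dermis. Counts per gene do not separate the epithelial and mesenchymal splice forms of the receptors.

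Each library held between 17409131 and 46542177 counts on genes, and levels below are CPM, counts scaled to a common library total after TMM normalisation. All 7 bulge genes, among them Cd34 and Lgr5, were called lower and all 4 interfollicular and infundibular genes, with Ly6a, which encodes Sca-1, were called higher in the Sca-1+ sort. Cd34 was lower by -2.98 on the log2 scale although both sorts were gated on CD34. Genes of other cell types differed as well. Of T cell, Langerhans cell and melanocyte genes, 7 of 7 and 4 of 5 were called higher and 2 of 5 lower in the Sca-1+ sort as the mean over tdT states. Of the 7 endothelial genes 0 were called by edgeR or DESeq2 in that mean, with 2 at an unadjusted p under 0.05. The T cell genes, none at 0 in a whole group, summed to 26.9 to 111 CPM in the Sca-1neg libraries, 500 to 1160 in tdT+ Sca-1+ and 183 to 193 in tdTneg Sca-1+, and the endothelial genes, likewise none at 0, to 6.12 to 422, 31.2 to 59.8 and 1620 to 1660. The library labelled tdT+ CD49f+CD34+Sca-1neg replicate 2 went against its label in a row of the files outside the genes, which was high in the other tdT+ libraries. Calls of members between the sorts and between the tdT states are therefore given with and without it. In bulk libraries fewer cells of a type and less RNA per cell cannot be told apart.

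Promoters are shown for members with an adjusted p under 0.05 between the sorts, over both tdT states or within tdT+ cells. They are given where the set of RefSeq promoters used here held an entry, as the 250 bases before the start site (GRCm38.p6, gene strand, 5′ to 3′). Fgf18 lies on the minus strand (chr11:33147401-33147650), Dusp6 on the plus strand (chr10:99262981-99263230) and Fgfr2 on the minus strand (chr7:130266809-130267058). Capitals mark cggaa or its reverse complement ttccg, the core that ETS factors downstream of ERK bind.
Fgf18: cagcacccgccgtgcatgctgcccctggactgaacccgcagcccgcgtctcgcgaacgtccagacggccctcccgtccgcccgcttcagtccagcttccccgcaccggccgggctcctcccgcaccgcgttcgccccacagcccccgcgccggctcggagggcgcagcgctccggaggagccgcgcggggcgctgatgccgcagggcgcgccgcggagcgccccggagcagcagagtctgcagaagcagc
Dusp6: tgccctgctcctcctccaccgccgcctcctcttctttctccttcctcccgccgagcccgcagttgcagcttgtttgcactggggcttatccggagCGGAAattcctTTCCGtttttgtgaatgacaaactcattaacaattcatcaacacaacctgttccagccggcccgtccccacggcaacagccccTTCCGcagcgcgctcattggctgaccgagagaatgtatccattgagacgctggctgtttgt
Fgfr2: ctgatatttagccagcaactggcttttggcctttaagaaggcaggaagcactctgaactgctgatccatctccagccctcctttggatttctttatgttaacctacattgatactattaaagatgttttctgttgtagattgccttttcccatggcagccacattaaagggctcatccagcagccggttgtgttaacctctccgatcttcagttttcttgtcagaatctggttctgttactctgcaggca
The Dusp6 window held 3 of these matches, and those of Fgf18 and Fgfr2 held 0. Of 32851 promoters of the table, 25.2% held at least 1. The core of TCF and LEF factors, ctttg or caaag, which cannot share a base with the ETS core, was found in 48.6% of all promoters, with 1 match in Fgfr2 and 0 in Fgf18 and Dusp6. GC content was 77.2% for Fgf18, 56.4% for Dusp6 and 44.0% for Fgfr2, against a median of 52.4%. An entry was found for 7 of the 10 members, all but Fgf1, Fgfr1 and Spry4, and of these 7 Dusp6 was the one with the ETS core.

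**Figure D1:**
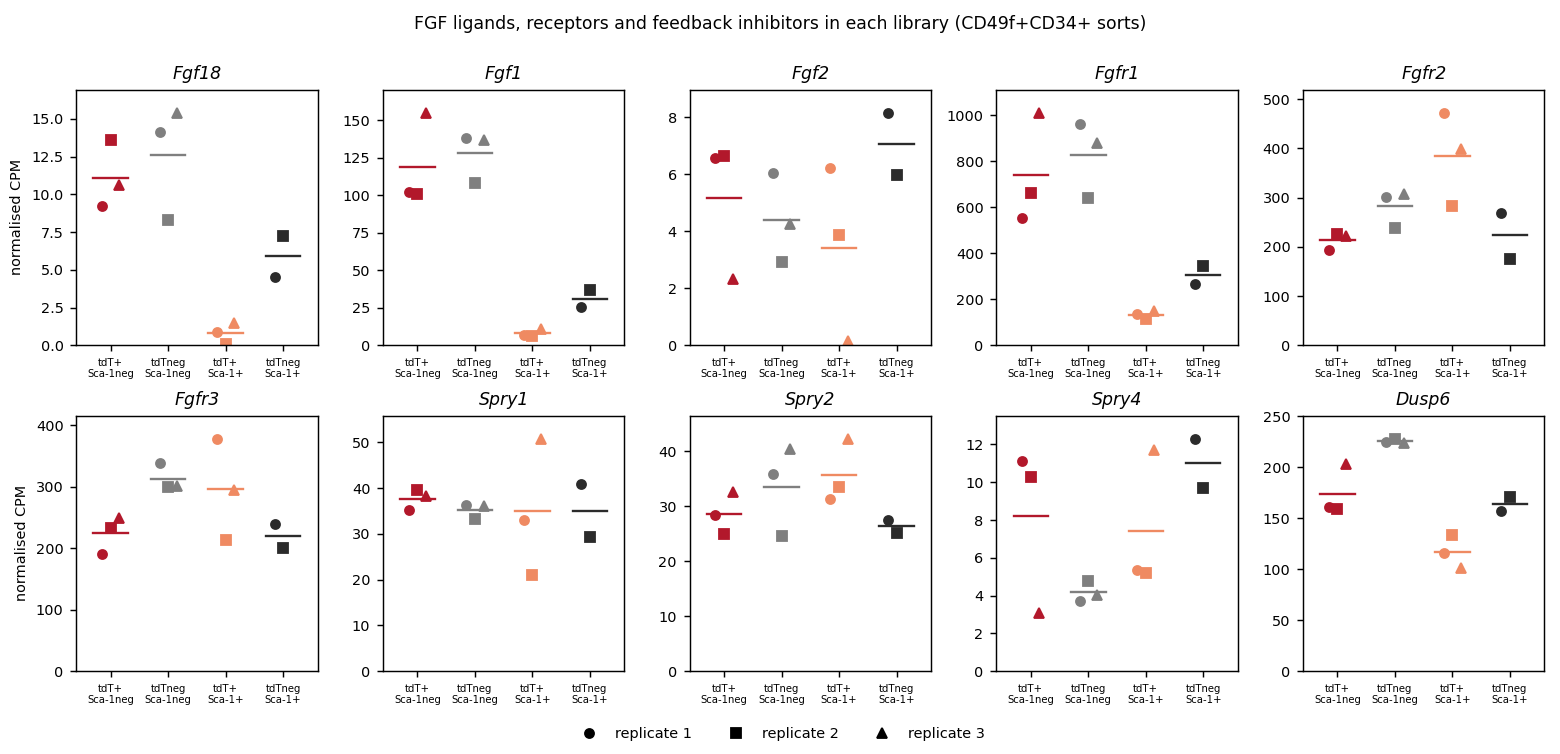
Normalised CPM (linear axes from 0) of the 10 genes in each of the 11 libraries, by group. Each point is a library, its shape the replicate number, and each bar a group mean. Fgf18, Fgf1 and Fgfr1 were lower in all 5 Sca-1+ libraries than in all 6 Sca-1neg libraries.

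The first question was which members differ between the Sca-1+ and Sca-1neg sorts, as the mean over tdT+ and tdTneg cells. Fgf1, Fgf18 and Fgfr1 were lower in Sca-1+ cells, by 7.86-fold, 5.42-fold and 3.88-fold. Dusp6 was lower by 1.43-fold, so that 4 of 10 members had an edgeR adjusted p under 0.05, against 19.3% of all genes tested. A gene was called if it also changed by more than 1 on the log2 scale in either direction. By that rule 3 of 10 members were called, 3 lower and 0 higher, where 11.6% of all genes tested were called, 6.79% lower and 4.77% higher. The libraries of the sorts did not overlap for 3 members, against 10.8% of all genes.

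Among the ligands, Fgf1 binds every FGF receptor. It had 102, 101 and 155 CPM in tdT+ Sca-1neg cells, 138, 108 and 137 in tdTneg Sca-1neg, 7.03, 5.91 and 11 in tdT+ Sca-1+, and 25.3 and 36.6 in tdTneg Sca-1+. Every Sca-1+ library lay below every Sca-1neg library, and within the Sca-1+ sort every tdT+ library lay below every tdTneg library. Between sorts the log2 fold change was -2.97 (standard error, SE, 0.22, edgeR adjusted p = 0.000121). It was -3.03 (edgeR adjusted p = 0.000186) when the library of doubted label was left out.

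Fgf18 (ENSMUSG00000057967, chr11:33117430-33147400, minus strand), the bulge ligand, was less abundant. It had 9.2, 13.6 and 10.6 CPM in tdT+ Sca-1neg cells, 14.1, 8.33 and 15.4 in tdTneg Sca-1neg, 0.853, 0.114 and 1.45 in tdT+ Sca-1+, and 4.52 and 7.25 in tdTneg Sca-1+. The order of the groups was that of Fgf1: the tdT+ and tdTneg Sca-1neg groups overlapped at the top, tdTneg Sca-1+ stood apart below them and tdT+ Sca-1+ was lowest, where replicate 2 held 2 counts of the gene. Between sorts it changed by -2.44 on the log2 scale (SE 0.50, edgeR adjusted p = 0.00864), and -2.36 (edgeR adjusted p = 0.0178) without the library of doubted label. The call was lost with the sort as the only factor (-2.06, edgeR adjusted p = 0.0695) and without tdTneg Sca-1+ replicate 1 (-2.29, edgeR adjusted p = 0.0687). The inner bulge keratin genes Krt6a and Krt75 were not called in any of the 6 comparisons by edgeR, with log2 fold changes between sorts of 0.38 and -0.52 (edgeR adjusted p = 0.519 and 0.57). DESeq2 called Krt75 lower in Sca-1+ cells within tdT+ cells, where edgeR gave -2.09 (adjusted p = 0.11).

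Fgf2, the basic FGF, lay between 2.31 and 6.64 CPM in the 6 Sca-1neg libraries and between 0.155 and 8.16 CPM in the 5 Sca-1+ libraries. Its lowest library, tdT+ Sca-1+ replicate 3, held 3 counts. The log2 fold change was 0.04, and its 95% interval of -1.44 to 1.53 took in changes past the fold threshold in both directions. Fgf2 shares 640 exon bases, 9.4% of its exons, with Nudt6 on the opposite strand, and the counting is not stated to use strand.

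Among the receptors, Fgfr1 (ENSMUSG00000031565, chr8:25513654-25575718, plus strand) had the same order of groups as Fgf1. It had 553, 661 and 1010 CPM in tdT+ Sca-1neg cells, 960, 642 and 878 in tdTneg Sca-1neg, 134, 115 and 149 in tdT+ Sca-1+, and 266 and 346 in tdTneg Sca-1+. No Sca-1+ library reached a Sca-1neg library, and the tdT+ Sca-1+ libraries lay below the tdTneg Sca-1+ libraries. Its change between sorts was -1.96 on the log2 scale (SE 0.20, edgeR adjusted p = 0.000287), and -2.00 (edgeR adjusted p = 0.000498) without the library of doubted label.

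Fgfr2 (ENSMUSG00000030849, chr7:130162451-133123350, minus strand) had 193, 225 and 221 CPM in tdT+ Sca-1neg cells, 302, 238 and 308 in tdTneg Sca-1neg, 472, 282 and 399 in tdT+ Sca-1+, and 269 and 176 in tdTneg Sca-1+. Its highest group was tdT+ Sca-1+, but neighbouring groups in the order of means overlapped. Between sorts it differed by 0.25 on the log2 scale, with a 95% interval of -0.11 to 0.62 (edgeR adjusted p = 0.309). Fgfr2 shares 314 exon bases, 3.0% of its exons, with Ctbp2 on the same strand. The Fgfr2 promoter printed above lies inside this long gene model and not before its 5′ end. Fgfr3, which is known to restrain growth in cartilage, lay between 190 and 339 CPM in Sca-1neg and between 201 and 378 CPM in Sca-1+ libraries. Its log2 fold change was -0.05, with an interval of -0.39 to 0.28.

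Per kilobase of exon, which allows levels of different genes to be set side by side, the shares of the receptor messages were computed for each library, without a test. Fgfr1 took 55.3%, 55.2% and 64.5% of the sum of the 3 receptors in tdT+ Sca-1neg libraries and 55.9%, 50% and 55.3% in tdTneg Sca-1neg libraries. In tdT+ Sca-1+ libraries it took 12.1%, 16.9% and 15.9%, and in tdTneg Sca-1+ libraries 31.2% and 43.7%. Fgfr1 was thus the most abundant receptor message in all 6 Sca-1neg libraries, and Fgfr3 in all 3 tdT+ Sca-1+ libraries. Fgfr2 made up 13.5% to 18.5% in Sca-1neg, 39.6% to 40.8% in tdT+ Sca-1+, and 21.3% and 30.1% in tdTneg Sca-1+ libraries. The ratio of Fgfr1 to Fgfr2 per kilobase was 2.82 to 4.77 in Sca-1neg, 0.297 to 0.426 in tdT+ Sca-1+, and 1.03 and 2.05 in tdTneg Sca-1+ libraries. The 3 receptors together held 101 to 174 CPM per kilobase in Sca-1neg and 68.9 to 112 in Sca-1+ libraries, ranges that overlap. Lengths were those of all annotated exons, so these shares depend on the annotation.

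**Figure D2:**
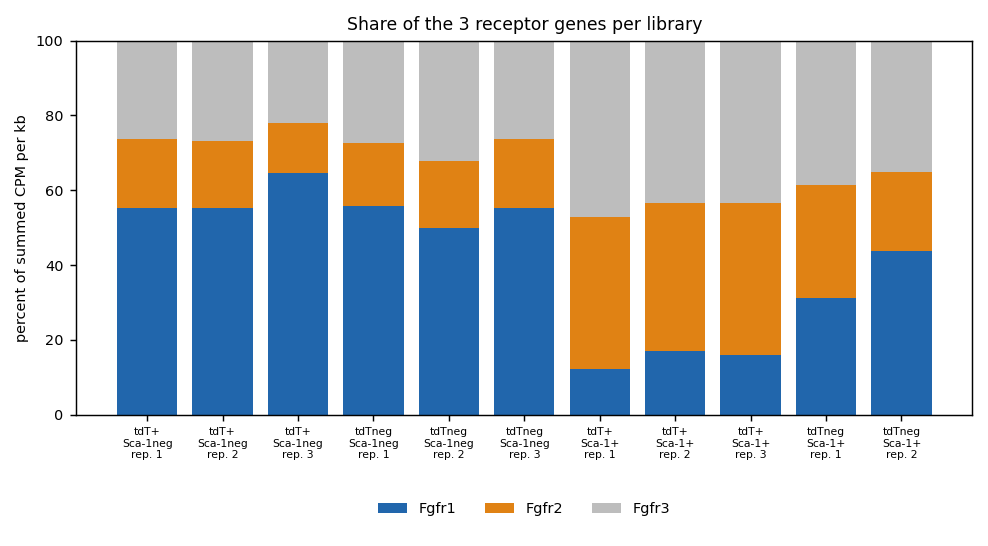
Share of Fgfr1, Fgfr2 and Fgfr3 in their summed CPM per kilobase of exon (percent, stacked to 100) in each library. The Fgfr1 share was at least 50% in the 6 Sca-1neg libraries and 12.1% to 16.9% in the 3 tdT+ Sca-1+ libraries, with the 2 tdTneg Sca-1+ libraries in between.

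Of the feedback inhibitors, Dusp6 (ENSMUSG00000019960, chr10:99263231-99267489, plus strand) was the one with an adjusted p under 0.05. It had 161, 159 and 203 CPM in tdT+ Sca-1neg cells, 225, 228 and 224 in tdTneg Sca-1neg, 116, 134 and 101 in tdT+ Sca-1+, and 157 and 171 in tdTneg Sca-1+. The sorts overlapped, since both tdTneg Sca-1+ libraries lay close to the lower tdT+ Sca-1neg libraries, while within each tdT state they did not. Its log2 fold change was -0.52 (SE 0.11, edgeR adjusted p = 0.00924), below the fold threshold, and -0.55 (edgeR adjusted p = 0.0116) without the library of doubted label. Without tdTneg Sca-1+ replicate 1 the adjusted p was 0.0618.

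The Sproutys are intracellular inhibitors of receptor tyrosine kinase signalling, and none of the 3 had an adjusted p under 0.05 between the sorts. Spry1 lay between 33.2 and 39.5 CPM in Sca-1neg and between 21 and 50.8 CPM in Sca-1+ libraries, a log2 fold change of -0.05 with a 95% interval of -0.51 to 0.40. Spry2 lay between 24.6 and 40.4 and between 25.2 and 42.3 CPM, a log2 fold change of -0.01 with an interval of -0.37 to 0.34. For these genes a change of the size seen in Fgf18, Fgf1 or Fgfr1 lies outside the interval. Spry4 was scarce, with 3.09 to 11.1 CPM in Sca-1neg and 5.17 to 12.3 CPM in Sca-1+ libraries. Its log2 fold change was 0.62 with an interval of -0.19 to 1.44 (edgeR adjusted p = 0.261). Spry1 shares 24.4% and Fgfr3 13.9% of their exon bases with a gene model of uncertain status on the opposite strand, so that their counts may hold reads of that model.

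Per kilobase the 10 messages spanned a wide range in Sca-1neg cells. Fgfr1 led with 79.4 ± 19.1 CPM per kilobase (SD, n = 6), followed by Dusp6 with 63.9 ± 10.3, whose libraries overlapped those of Fgfr1, and Fgfr3 with 37.5 ± 7.59. Fgfr2 had 24 ± 4.5 and Fgf1 22.6 ± 4.18, values closer than their spread. Fgf2 had the lowest mean at 0.706 ± 0.281, and its libraries overlapped those of Spry4 with 1.3 ± 0.754. In tdT+ Sca-1+ cells Fgfr3 (41.3 ± 11.4 CPM per kilobase, SD, n = 3), Dusp6 (37.3 ± 5.28) and Fgfr2 (37.2 ± 9.28) were closer than their spread. In tdTneg Sca-1+ cells Dusp6 was highest with 52.4 ± 3.22 CPM per kilobase (SD, n = 2), above Fgfr1 with 31 ± 5.78 and Fgfr3 with 30.7 ± 3.76.

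Within tdT+ cells alone Fgf1 was 15-fold lower in Sca-1+ cells, at -3.90 on the log2 scale (SE 0.29, edgeR adjusted p = 0.000169). Fgf18 had -3.78 (SE 0.69, edgeR adjusted p = 0.00732) and Fgfr1 -2.48 (SE 0.26, edgeR adjusted p = 0.000522). These 3 of 10 members were called, all lower, where 8.45% of all genes were called, 5.54% lower, and the libraries of 5 members did not overlap, against 30.4% of all genes. Fgfr2 was higher, by 0.85 on the log2 scale (SE 0.22, edgeR adjusted p = 0.0335), and Dusp6 lower, by -0.58 (SE 0.14, edgeR adjusted p = 0.0282). Neither passed the fold threshold, and with them 5 of 10 members had an adjusted p under 0.05, against 12.3% of all genes. Without the library of doubted label the 3 calls held, with edgeR adjusted p-values of 0.000536, 0.0184 and 0.00138, Dusp6 had an adjusted p of 0.0368 and Fgfr2 one of 0.0668. Fgfr2 was called without tdT+ Sca-1+ replicate 2 (edgeR adjusted p = 0.022). Within tdT+ cells edgeR also called 6 of 7 T cell and 1 of 4 interfollicular and infundibular genes higher in Sca-1+ cells. It called 6 of 7 bulge, 1 of 5 melanocyte and 1 of 5 Langerhans cell genes lower, and 0 of 7 endothelial genes. The part of these genes' cells in the differences of the members was not tested.

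Within tdTneg cells Fgf1 (log2 fold change -2.04, SE 0.31, edgeR adjusted p = 0.00933) and Fgfr1 (-1.43, SE 0.29, edgeR adjusted p = 0.0221) were called lower in Sca-1+ cells. These were 2 of 10 members, where 4.74% of all genes were called, 1.45% lower, and 6 members did not overlap, against 46.3% of all genes. Fgf18 had -1.10 (SE 0.70, edgeR adjusted p = 0.411). Spry4 had 1.40 (SE 0.54, edgeR adjusted p = 0.173), with 3.72, 4.78 and 4.03 CPM in Sca-1neg against 12.3 and 9.72 CPM in Sca-1+ libraries, and was called with only the groups compared in the fit (1.45, edgeR adjusted p = 0.0353). The tdTneg Sca-1+ group has 2 libraries, and the calls depended on them: without its replicate 1 the edgeR adjusted p was 0.105 for Fgf1 and 0.224 for Fgfr1, and without its replicate 2 it was 0.0874 for Fgfr1. Fgfr1 also lost its call without tdTneg Sca-1neg replicate 1 (edgeR adjusted p = 0.0641) or replicate 3 (0.0778). Without the library of doubted label both were called (edgeR adjusted p = 0.00825 and 0.026). Of the 7 endothelial genes Egfl7 and Tek were called higher in Sca-1+ cells here by edgeR and DESeq2, and 6 had an unadjusted p under 0.05. By edgeR 6 of 7 T cell, 3 of 5 Langerhans cell and 3 of 4 interfollicular and infundibular genes were also called higher, and 4 of 7 bulge genes lower. The part of these genes' cells in the differences of the members was not tested.

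**Figure D3:**
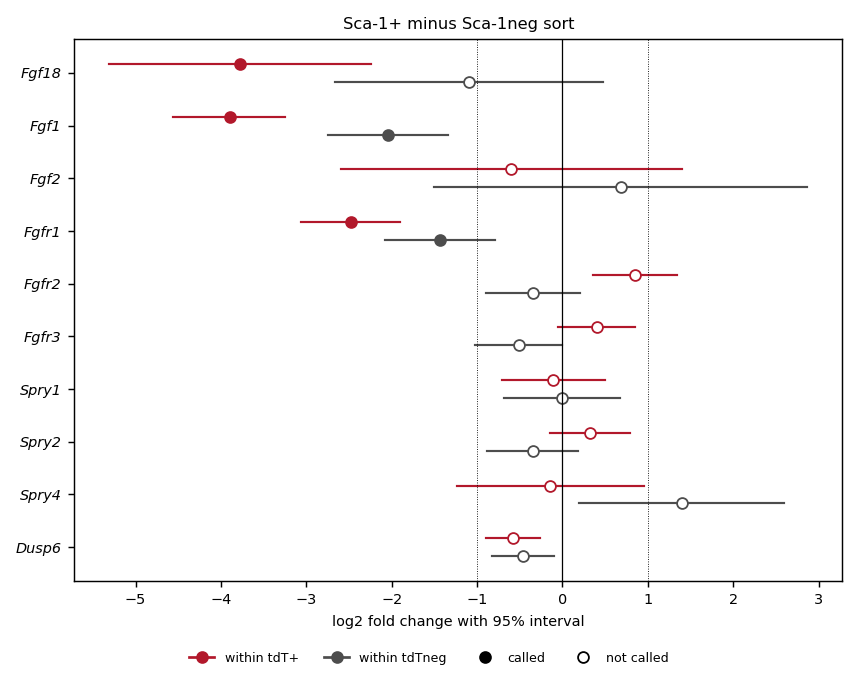
Log2 fold changes of the 10 genes between Sca-1+ and Sca-1neg cells within tdT+ and within tdTneg cells, with 95% intervals and dotted lines at the fold threshold. Filled points were called: Fgf18, Fgf1 and Fgfr1 in tdT+ cells, and Fgf1 and Fgfr1 in tdTneg cells.

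The next question was whether cells with a history of Cd4-driven Cre differ from the other cells of the same sort. In Sca-1neg cells 0 of 10 members were called, where edgeR called 0.00985% of all genes, or 2 genes, and 4 genes with the replicate number as a block. DESeq2 called 0 members too, against 1.63% of all genes. At an unadjusted p under 0.05 there were 2 members, against 8.42% of all genes: Fgfr3 with a log2 fold change of -0.48 (edgeR adjusted p = 0.574) and Dusp6 with -0.37 (edgeR adjusted p = 0.518). Fgfr3 had 190, 233 and 249 CPM in tdT+ against 339, 300 and 301 CPM in tdTneg libraries. Of the 7 T cell genes edgeR called 0 and DESeq2 5 in this comparison, with 6 at an unadjusted edgeR p under 0.05. Of the 4 interfollicular and infundibular genes the counts were 0, 2 and 4. The part of these genes' cells was not tested. The 95% intervals were -0.68 to 0.48 for Fgf1, -0.71 to 0.39 for Fgfr1 and -1.53 to 1.18 for Fgf18. Without the library of doubted label 0 members were called, and these 3 had log2 fold changes of 0.01, -0.09 and -0.35.

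In Sca-1+ cells Fgf1 was 3.88-fold lower and Fgfr1 2.31-fold lower in tdT+ than in tdTneg cells. The log2 fold change of Fgf1 was -1.96 (SE 0.29, edgeR adjusted p = 0.0083) and that of Fgfr1 -1.21 (SE 0.27, edgeR adjusted p = 0.0496). These 2 of 10 members were called, both lower, where 2.31% of all genes were called, 2.06% lower, and 6 members did not overlap, against 33.0% of all genes. The Fgfr1 call lay at the threshold: leaving out the library of doubted label gave an edgeR adjusted p of 0.0601, leaving out tdTneg Sca-1neg replicate 1 or 3 gave 0.0705 or 0.0793, and leaving out any of the 5 Sca-1+ libraries gave values from 0.106 to 0.431. For Fgf1 the call held without the library of doubted label (edgeR adjusted p = 0.00974) and was lost without tdTneg Sca-1+ replicate 2 (-1.71, edgeR adjusted p = 0.0819).

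Fgf18 had the largest fitted difference of the members in this comparison, -2.86 (SE 0.70), but an edgeR adjusted p of 0.0708. DESeq2 called it (-2.89, adjusted p = 0.000135), and edgeR did once all genes with 1 or more counts were kept (-2.92, adjusted p = 0.00692) and without tdT+ Sca-1+ replicate 2 (-2.41, adjusted p = 0.0401). The DESeq2 call came together with Fgf1 and Fgfr1, where DESeq2 called 5.54% of all genes. Fgfr2 pointed the other way with 0.79 (95% interval 0.23 to 1.35, edgeR adjusted p = 0.162), and its tdT+ and tdTneg libraries did not overlap. Dusp6 had -0.49 (95% interval -0.84 to -0.13, edgeR adjusted p = 0.171).

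Other genes moved with tdT in the Sca-1+ sort. Of the 7 bulge genes Cd34, Lhx2 and Lgr5 were called lower in tdT+ cells, with log2 fold changes of -3.68, -2.69 and -2.31, and 4 were not called by edgeR, with -1.45 for Postn and 0.20 for Krt15 at the ends of their range. DESeq2 called 6 of the 7, all but Krt15. Of the 7 endothelial genes 2 were called lower by edgeR and 3 by DESeq2, and of the 7 T cell genes 3 were called higher by edgeR and 6 by DESeq2, and their sums are given above. Of the 5 Langerhans cell genes Mfge8 was called lower by both (edgeR log2 fold change -2.44). Fgfr1 is also known from vessels and fibroblasts. The 6 fibroblast genes summed to 26.9, 342 and 28.9 CPM in tdT+ Sca-1+ and to 233 and 478 CPM in tdTneg Sca-1+ libraries, with 0 called by edgeR or DESeq2 and 0 at an unadjusted p under 0.05. The part of these cells in the differences of Fgf1, Fgf18 and Fgfr1 was not tested.

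**Figure D4:**
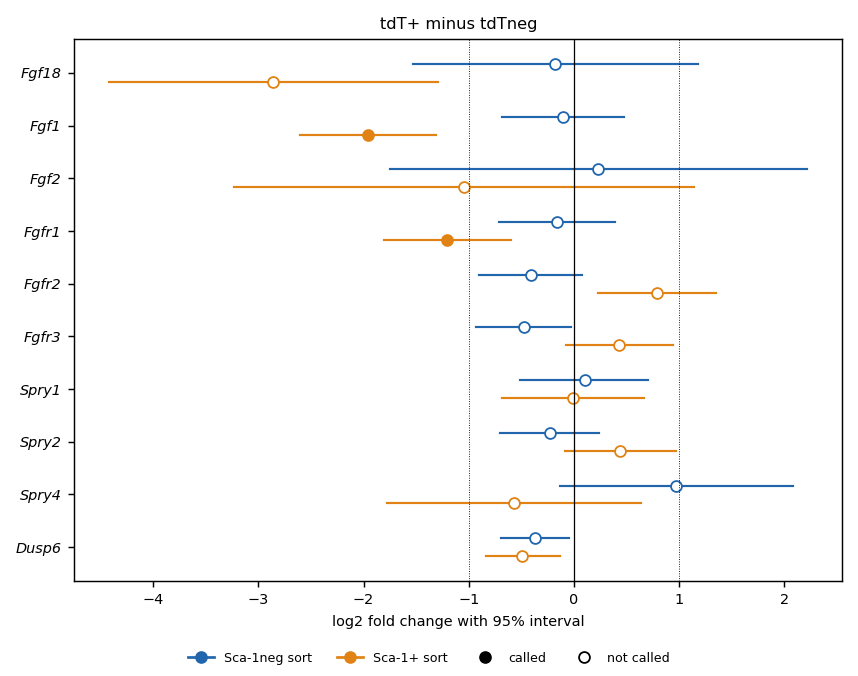
Log2 fold changes of the 10 genes between tdT+ and tdTneg cells in the Sca-1neg and the Sca-1+ sort, with 95% intervals and dotted lines at the fold threshold. Filled points were called, Fgf1 and Fgfr1 in the Sca-1+ sort, and in the Sca-1neg sort 0 genes were called.

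Whether the effect of tdT differed between the sorts was tested by the interaction. By edgeR 0 of 10 members were called, where 0.389% of all genes were, and 5 members had an unadjusted p under 0.05, against 12.4% of all genes. Fgf1 had an interaction of -1.86 (SE 0.39, edgeR adjusted p = 0.0805), Fgf18 -2.68 (edgeR adjusted p = 0.268) and Fgfr1 -1.05 (edgeR adjusted p = 0.28). Fgfr2 had 1.19 (edgeR adjusted p = 0.175) and Fgfr3 0.91 (edgeR adjusted p = 0.256). DESeq2 called 4 members, Fgf18, Fgf1, Fgfr1 and Fgfr2, where it called 3.83% of all genes. With the replicate number as a block edgeR called Fgf1 (-2.04, adjusted p = 0.0377), and it did as well with all genes of 1 or more counts kept or with 10 counts required in every library (adjusted p = 0.00363 and 0.0242). Without the library of doubted label 0 members were called, with -1.97 for Fgf1 (edgeR adjusted p = 0.117).

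The rest of the pathway was followed in 69 genes, of which 57 passed the filter. Between the sorts edgeR called 3 higher and 5 lower in Sca-1+ cells and did not call 49, where 4.77% of all genes were called higher and 6.79% lower. Fgfbp1 and Fgfrl1 kept their calls without any 1 of the 11 libraries, while the other 6 lost theirs without 1 library or another, as given beside them. DESeq2 called 10 of the 57, the same 8 with Fgf23 and Fgfr4, against 16.3% of all genes. The median log2 fold change of the 57 was -0.00, beside -0.09 over all genes tested. Of 8 other receptors, co-receptors and ligand carriers tested 1 was called higher, 2 lower and 5 were not called. Fgfbp1, which releases FGFs from the matrix, had 97.8, 150 and 69.5 CPM in tdT+ Sca-1neg, 66.9, 34.2 and 54.7 in tdTneg Sca-1neg, 293, 353 and 294 in tdT+ Sca-1+, and 244 and 148 in tdTneg Sca-1+ libraries. All Sca-1+ libraries but tdTneg replicate 2 lay above every Sca-1neg library. Its log2 fold change was 1.74 (SE 0.24, edgeR adjusted p = 0.00113).

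Fgfrl1, a receptor without a tyrosine kinase domain, had 19.4, 13.6 and 18.4 CPM in tdT+ Sca-1neg, 30.1, 44.5 and 29.2 in tdTneg Sca-1neg, 4, 5.39 and 5.63 in tdT+ Sca-1+, and 8.2 and 14.6 in tdTneg Sca-1+ libraries. Within each tdT state the Sca-1+ libraries were the lower ones. Its log2 fold change was -1.69 (SE 0.23, edgeR adjusted p = 0.000971). Klb, the co-receptor for endocrine FGFs, had 1076 counts in the 6 Sca-1neg libraries, and 3 counts in tdT+ and 0 in tdTneg Sca-1+ libraries. The Sca-1neg counts were uneven, with 639, 155 and 1 in tdT+ and 10, 260 and 11 in tdTneg libraries. It was called lower (edgeR adjusted p = 0.0245), but not without tdT+ Sca-1+ replicate 1 (0.0541) or either tdTneg Sca-1+ library (0.121 and 0.106).

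Inside the cell, Frs3, a relative of the adaptor FRS2, was called lower (-1.37, edgeR adjusted p = 0.00563; 0.0501 without tdTneg Sca-1+ replicate 1) and was the 1 gene called among 17 of the signal relay. Fgf13, a member of the intracellular homologous factors that is not secreted, was called higher (1.47, edgeR adjusted p = 0.0289), but not without the library of doubted label (1.35, edgeR adjusted p = 0.0555), nor without any 1 of the 3 tdTneg Sca-1neg libraries, tdT+ Sca-1+ replicate 1 or 3, or either tdTneg Sca-1+ library (up to 0.144). Dusp5, a nuclear phosphatase of ERK, was called higher (1.21, edgeR adjusted p = 0.026), the opposite direction to Dusp6, but not without tdT+ Sca-1+ replicate 3 or either tdTneg Sca-1+ library (edgeR adjusted p up to 0.105). Of 7 genes known to follow ERK, the ETS factor gene Etv4 (-1.10, edgeR adjusted p = 0.0267) and Phlda1 (-1.12, edgeR adjusted p = 0.018) were called lower and 5 were not called. Etv4 lost its call without replicate 1 of any group or without tdT+ Sca-1+ replicate 3, and Phlda1 without tdT+ Sca-1neg replicate 3 or tdTneg Sca-1+ replicate 1. The 8 immediate early genes, which cell dissociation also induces, had 0 calls in all 6 comparisons by edgeR and by DESeq2, and at most 3 of them had an unadjusted p under 0.05 in a comparison, with 10800 to 18700 CPM in sum in Sca-1neg and 11900 to 17100 CPM in Sca-1+ libraries.

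**Figure D5:**
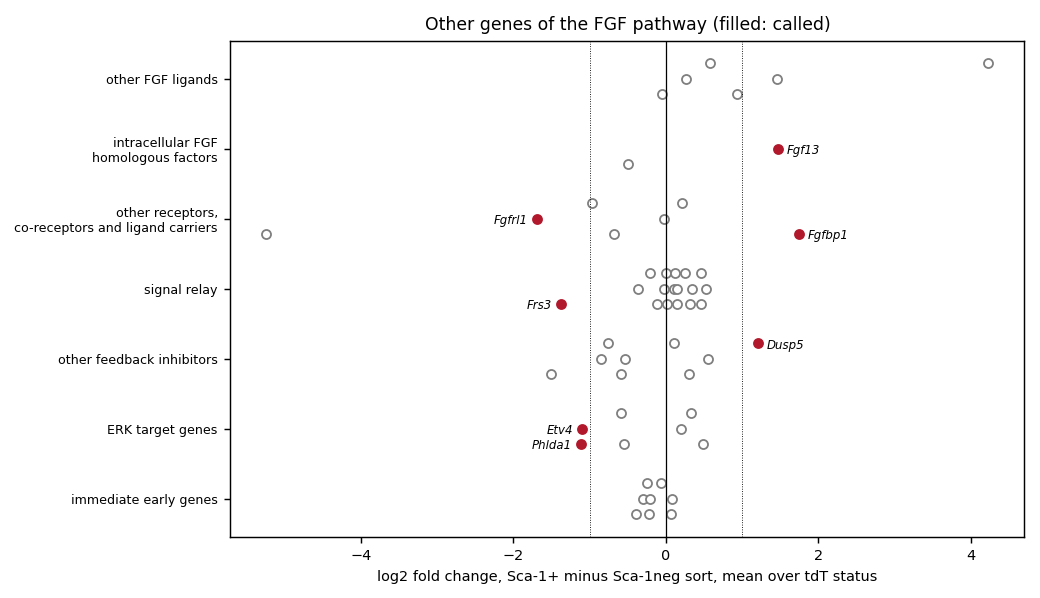
Log2 fold changes between Sca-1+ and Sca-1neg cells, as the mean over tdT states, of 56 of the 57 pathway genes tested, by list. Filled points with a name were called, and Klb, with 0 counts in a whole group, is left out.

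Within tdT+ cells 2 pathway genes were called higher, Fgf13 and Fgfbp1, and 5 lower, Fgfr4, Fgfrl1, Frs3, Spred3 and Il17rd, 7 of 57 where 8.45% of all genes were called. DESeq2 called these 7 with Klb, Etv4 and Phlda1, 10 of 57, against 15.5% of all genes. With the replicate number as a block Frs3 (edgeR adjusted p = 0.0547) and Fgfr4 (0.0536) were not called. Spred3 (-1.43, edgeR adjusted p = 0.00864) and Il17rd (-1.06, edgeR adjusted p = 0.024) are inhibitors of the RAS to ERK relay, as the Sproutys are. Fgfr4 had 838 counts in the Sca-1neg and 1 in the Sca-1+ libraries of tdT+ cells, and 0 of these in Sca-1neg replicate 3. Fgfbp1, Fgfrl1 and Spred3 kept their calls without any 1 library. Fgf13 lost its call in 9 of the 11 fits without 1 library (edgeR adjusted p = 0.0628 to 0.116), Frs3 in 8 (0.0582 to 0.0978) and Fgfr4 in 9 (0.0528 to 0.141), among them for all 3 the fit without the library of doubted label. Fgf13 was also not called with RLE size factors (edgeR adjusted p = 0.0509), nor Frs3 with every gene of 1 or more counts kept (0.0898). Il17rd lost its call without tdT+ Sca-1neg replicate 3 (edgeR adjusted p = 0.0568) or tdT+ Sca-1+ replicate 1 (0.0771) or 2 (0.0717). Within tdTneg cells Fgfbp1 was called higher (1.92, edgeR adjusted p = 0.0153) and Fgfrl1 lower (-1.60, edgeR adjusted p = 0.0256), 2 of 57 where 4.74% of all genes were called. DESeq2 called 7 of the 57 here, against 10.2% of all genes. Neither edgeR call was made without tdTneg Sca-1neg replicate 3 (edgeR adjusted p = 0.0644 and 0.0656) or tdTneg Sca-1+ replicate 1 (0.166 and 0.244), nor Fgfrl1 without tdTneg Sca-1neg replicate 1 (0.053) or 2 (0.0562). Between tdT+ and tdTneg Sca-1+ cells Spred3 was called lower (-1.51, edgeR adjusted p = 0.0275; 0.0707 with the block), with 4.26, 4.88 and 3.51 CPM against 9.37 and 14.7 CPM. It was the 1 of 57 called by edgeR, against 2.31% of all genes, and DESeq2 called 3, against 5.54%. The Spred3 call was lost without tdTneg Sca-1neg replicate 3 (edgeR adjusted p = 0.0537), tdT+ Sca-1+ replicate 1 (0.0761) or 3 (0.0856), or tdTneg Sca-1+ replicate 2 (0.345). With only the groups compared in the fit, the calls of Fgf13 (edgeR adjusted p = 0.095), Frs3 (0.103) and Il17rd (0.0595) in tdT+ cells, Fgfrl1 in tdTneg cells (0.0519) and Spred3 between the tdT states (0.0567) were lost. Between tdT+ and tdTneg Sca-1neg cells edgeR called 0 of the 57 and DESeq2 1, with 5 at an unadjusted p under 0.05, against 8.42% of all genes. In the interaction the counts were 0, 1 and 10, the last against 12.4% of all genes.

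Of the 15 other FGF ligands 6 passed the filter and 0 were called in any comparison by edgeR. At most 2 had an unadjusted p under 0.05 in a comparison, and DESeq2 called Fgf23 higher in Sca-1+ cells, over both tdT states and within tdTneg cells. Fgf7 and Fgf10, the dermal ligands of epithelial FGFR2, reached at most 1.65 and 1.68 CPM in a library, Fgf5, which ends hair growth, at most 1.05 CPM and Fgf22 at most 1.09 CPM. Fgf9 had 3.8 and 4.1 CPM in the tdTneg Sca-1+ libraries and at most 0.75 CPM in the others, and Fgf23, the phosphate hormone, had 5.22 and 10.8 CPM there and at most 2.21 CPM elsewhere. The endothelial sum was high in the same libraries, and its part was not tested. Fgf9 and Fgf23 had edgeR adjusted p-values of 0.218 and 0.515 between tdT+ and tdTneg Sca-1+ cells.

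For each member called between the sorts, the genes outside the lists with the most similar profile were taken over the 11 libraries, as Pearson's r of log2 CPM, among 11664 genes with a mean of at least 5 CPM. The points share the same libraries and the split between sorts, so r is a description. Fgf1 was most like Mertk, Adamtsl4 and Zfp275 and Fgfr1 most like Wwp2, Adamtsl4 and Gm973, all at r = 0.99. Fgf18 was most like Kcnk10 (r = 0.98), Me3 and Fam13c (r = 0.97 each), and with a prior count of 0.5 in place of 2 like Emilin3, Grik5 and Kcnk10 (r = 0.98 each).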

How the data were processed

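RNA was prepared with TRIzol from FACS-sorted cells, with the cells of 2 mice per library, and libraries with a TruSeq RNA v2 kit. The deposited files hold raw counts per Ensembl gene that the authors made with STAR and featureCounts on mm10 and the Ensembl release 96 annotation. The strand setting is not given in the sources used here. Groups and replicate numbers came from the labels. All 55536 identifiers matched GENCODE M21, and 1 row outside the genes (at most 0.0307% of counts) was left out of totals and tests.

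The quasi-likelihood test of edgeR 4.0.16 under R 4.3.3 (TMM, filterByExpr, glmQLFit and glmQLFTest) was fitted to the counts with 1 mean per group over all 11 libraries. Calls needed a Benjamini-Hochberg adjusted p under 0.05 over 20307 genes and a change of more than 1 on the log2 scale. The common biological coefficient of variation was 0.608, and depth (17409131 to 46542177 counts) limits the genes of low count most. Log2 CPM used a prior count of 2. Alternatives were DESeq2 1.42.0, RLE size factors, other filters (at least 1 count in any library, at least 10 in every library), the replicate number as a block, the sort as the only factor, only the groups compared, and omission of each library. Promoters were searched and figures drawn with Python 3.11.15 and matplotlib 3.10.9.

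The members and lists were chosen with earlier results of these data known. Named were all members, pathway genes called in any comparison, ligands that passed the filter, markers printed beside a result, and the 3 genes most like each called member. The study's methods were read to say that a replicate number stands for 1 pool of 2 mice from which all populations were sorted, so the numbers pair the libraries across groups. The correlation of deviations from group means had a median of 0.08 (-0.42 to 0.59) over 15 same-numbered pairs and -0.02 over 30 others. Of the 11 libraries 7 correlated best with one of their own number. The main fit did not use the pairing, which entered as the block among the alternatives. No pair of libraries was identical (0 pairs). The promoters are RefSeq's, GRCm38.p6. Sequences of Fgf1, Fgfr1 and Spry4 were not used here.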

Additional observations from a re-analysis of the deposited data

Results flagged for a closer look

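A row of the files outside the Ensembl genes, which no comparison used, held a signal above its level in the tdTneg libraries (2.54 to 4.89 CPM of the library totals). It held 133 CPM in tdT+ Sca-1neg replicate 1, 252 CPM in replicate 3, and 254, 224 and 307 CPM in tdT+ Sca-1+ replicates 1, 2 and 3. The library labelled tdT+ Sca-1neg replicate 2 held 37 counts, or 2.05 CPM, below every tdTneg library. Its T cell genes summed to 111 CPM, beside 86.7 and 86.5 CPM in the other tdT+ Sca-1neg libraries and 26.9 to 38.5 CPM in the tdTneg Sca-1neg libraries. Its Fgfr1 (661 CPM) lay within the range of the other Sca-1neg libraries, and its Fgf1 (101 CPM) was the lowest of the 6, next to 102 CPM in tdT+ replicate 1.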

How the results depend on the processing

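Over all alternatives the members gave 998 log2 fold changes, of which 924 kept their direction and their side of the threshold, 16 lost a call, 12 gained one and 46 changed sign. All but 1 of the sign changes were of values under 0.2 in size. Spry2 between the sorts (-0.01) was 0.01 with DESeq2 and RLE size factors, 0.00 with at least 10 counts in every library, 0.06 with the replicate block, 0.04 with the sort as the only factor, and -0.10 to 0.06 without 1 library. Fgf2 between the sorts was -0.47 with the block and -0.34 to 0.32 without 1 library. Spry1 within tdTneg cells (-0.00) was 0.08 with DESeq2, RLE and at least 10 counts, 0.01 with at least 1 count in any library, 0.09 with the block, 0.05 with the groups compared alone, and -0.27 to 0.26 without 1 library. Between tdT+ and tdTneg Sca-1neg cells Fgf1 was 0.00 with at least 10 counts, and Fgf2 -0.05 with the block.

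Without 1 library signs also changed between the sorts for Fgfr3 (-0.16 to 0.05) and Spry1 (-0.24 to 0.09), within tdT+ cells for Spry1 (-0.47 to 0.13) and Spry4 (-0.64 to 0.14), between tdT+ and tdTneg Sca-1neg cells for Fgf1 (-0.33 to 0.01) and Fgfr1 (-0.45 to 0.01), in Sca-1+ cells for Spry1 (-0.38 to 0.24), and in the interaction for Spry1 (-0.47 to 0.16) and Dusp6 (-0.31 to 0.01). Members called in the interaction, 0 in edgeR, were 4 with DESeq2, and 1 each with at least 1 count in any library, at least 10 counts in every library and the replicate block. Without 1 library the members called were 0 to 2 within tdTneg cells and 0 to 2 between tdT+ and tdTneg Sca-1+ cells, and the pathway genes called between the sorts were 2 to 8, with 2 without tdTneg Sca-1+ replicate 1 and 5 without its replicate 2, tdT+ Sca-1+ replicate 1 or tdT+ Sca-1+ replicate 3. The cause was not tested.

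Beyond the calls given with the block above, the block changed no call of a member or of a called pathway gene. All genes called ranged from 1160 to 3313 between the sorts (2347 in edgeR), 1174 to 3143 within tdT+ cells (1715), 55 to 2071 within tdTneg cells (963), 0 to 332 between tdT+ and tdTneg Sca-1neg cells (2), 97 to 1126 in Sca-1+ cells (470) and 1 to 777 in the interaction (79). RLE size factors and DESeq2 moved the median of all genes by -0.12 in the interaction, and the filter of at least 1 count moved it by -0.35 between the sorts. With at least 10 counts in every library Fgf18 and Fgf2 were not tested. Where a tdTneg Sca-1+ library was left out, the remaining library is assumed to vary like the other groups.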

Other observations

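Among the 6 Sca-1neg libraries some members split the libraries the same way, across tdT states and ages, while Fgf18, Fgf2, Fgfr2, Fgfr3, Spry1 and Dusp6 did not show this split. The share of all genes with the same split was not counted, so the split is not known to be particular to these members. Fgf1 was lowest in tdT+ replicates 1 and 2 and tdTneg replicate 2, with 102, 101 and 108 CPM against 155, 138 and 137 CPM in the other libraries. Fgfr1 was lowest in the same libraries, with 553, 661 and 642 CPM against 1010, 960 and 878 CPM. The inhibitor Spry4 was highest there, with 11.1, 10.3 and 4.78 CPM against 3.09, 3.72 and 4.03 CPM, and Spry2 lowest, with 28.4, 24.9 and 24.6 CPM against 32.6, 35.9 and 40.4 CPM.

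The receptor gene Fgfr4 and its co-receptor Klb separated the same libraries by more. Fgfr4 had 25.7, 14.5 and 8.67 CPM in those libraries and 0, 0.703 and 0.512 CPM in the other Sca-1neg libraries, and Klb had 29, 8.3 and 6.87 CPM against 0.0551, 0.207 and 0.268 CPM. The sums of the immediate early genes were lower there (11000, 10800 and 15100 against 18700, 18700 and 17700 CPM) and the endothelial sums higher (76.3, 422 and 101 against 6.12, 32.3 and 40.9 CPM). The bulge sums were lower there as well, with 11600, 16500 and 15900 against 18500, 18700 and 22300 CPM. The sums of the other marker lists overlapped. These libraries were picked out by the values themselves, so no test was made, and the library of doubted label is among them.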
